A study of Mus musculus with 32 samples.

Results

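The pigment cell genes described here are 9 genes of the melanocyte lineage, Dct, Tyrp1, Tyr, Pmel, Mlana, Trpm1, Mitf, Kit and Ednrb. They were matched by gene symbol in the platform annotation and make up 9 of the 18193 genes with a probe set that carries 1 symbol. All of their 20 probe sets were examined. RNA was measured on 32 Affymetrix arrays in jaw tissue of mouse embryos at E13.5, with the strain given as C57B6. The mutants were Wnt1cre;Alk5 fl/fl embryos, in which Alk5, the type I TGF-beta receptor encoded by Tgfbr1, is deleted in cells with Wnt1-driven Cre. They came from matings of Wnt1cre;Alk5fl/+ with Alk5fl/fl mice and were recognised by a cleft palate and a calvarial defect. Controls were littermates, so they carry floxed Alk5 alleles too, and the labels do not give the genotype of each. Mandible and maxilla were each divided into a distal and a proximal end, which gave 8 groups of 4 arrays. The arrays are numbered 1 to 4 in every group, and the labels do not say whether a number is 1 embryo or a pool. The p-values therefore take their error from differences among these arrays, some of which may be technical, and 4 arrays a group limit the precision.

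Melanocytes arise from the neural crest, the embryonic cell population in which Wnt1-driven Cre is active. Their precursors migrate through the facial mesenchyme and along nerves, depend on the receptors Kit and Ednrb, and are specified by the transcription factor Mitf. Mitf binds short E-box sequences in front of the genes for melanosome proteins and pigment enzymes. The same enzymes are made in the retinal pigment epithelium of the eye, which comes from the optic neuroepithelium and not from the neural crest. Kit is also made by mast cells, and Ednrb by Schwann cell precursors and enteric crest cells, so these receptors do not mark melanocytes alone. In bulk tissue, fewer cells of a type and less RNA per cell cannot be told apart.

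The jaw labels were checked against jaw mesenchyme genes. Hand2, a transcription factor of the lower jaw, was higher in mandible than maxilla by 4.99 in control and 5.72 in mutant distal tissue on the log2 scale, on which a difference of 1 is a 2-fold change. The probe set of the targeted gene, Tgfbr1, was not lower in the mutants. Its mutant minus control differences were 0.28 in distal mandible, 0.18 in proximal mandible, 0.41 in distal maxilla and 0.16 in proximal maxilla (limma adjusted p = 0.0411, 0.285, 0.00477 and 0.978). Whether its probes lie in the deleted part is not given in the sources used here, so it does not check the genotype labels. The arrays numbered 1 stood apart, with a Cre spike-in signal of 13.77 to 14.02 against 12.56 to 13.35 on the other arrays. Array 1 of the mutant distal maxilla stood apart further, with the lowest of the 32 array weights estimated by limma (0.0709). The signal of Gapdh at its 3' end exceeded that at its 5' end by 2.23 on control distal mandible array 3 and by at most 0.12 elsewhere. Control arrays numbered 2 and mutant arrays numbered 1 had low Eif2s3y and high Xist, so control and mutant differed in sex within those numbers.

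The low-signal level was the 40th percentile of each array, which lay between 6.66 and 6.86. A probe set was tested when it lay above that level on at least 4 arrays. Of the 20 probe sets 11 passed, and they covered 6 of the 9 genes: Dct, Pmel, Trpm1, Mitf, Kit and Ednrb. Kit, Ednrb and Pmel were above the level on all 32 arrays, Mitf on 31 and Dct on 22. Trpm1 was above it on 12, of which 8 were mutant mandible arrays. None of the 7 probe sets of Tyr, Tyrp1 and Mlana was above the level on any array. The first 6 genes thus gave signal past the filter in jaw tissue at this stage, and the other 3 stayed below the low-signal level, which is a threshold chosen here and not a detection call.

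The promoters of the pigment enzymes are shown because they carry the E-box that Mitf is known to bind, and the promoters of Trpm1 because it was the gene called between mutant and control mandible. The windows are the 250 bases before the annotated start in RefSeq (GRCm38.p6), written in the direction of transcription. They were found for 7 of the 9 genes; Pmel and Mlana had no entry. Capitals mark CATGTG or CACGTG on either strand. The windows lie at chr14:118052247-118052496 on the minus strand for Dct, chr4:80833963-80834212 on the plus strand for Tyrp1 and chr7:87493513-87493762 on the minus strand for Tyr. Those of Trpm1 lie at chr7:64153585-64153834 and chr7:64185209-64185458 on the plus strand.
Dct: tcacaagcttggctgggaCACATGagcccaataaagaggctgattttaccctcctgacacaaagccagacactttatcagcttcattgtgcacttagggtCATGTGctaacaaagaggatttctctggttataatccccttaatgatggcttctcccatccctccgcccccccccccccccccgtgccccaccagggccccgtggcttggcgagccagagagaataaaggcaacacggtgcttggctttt
Tyrp1: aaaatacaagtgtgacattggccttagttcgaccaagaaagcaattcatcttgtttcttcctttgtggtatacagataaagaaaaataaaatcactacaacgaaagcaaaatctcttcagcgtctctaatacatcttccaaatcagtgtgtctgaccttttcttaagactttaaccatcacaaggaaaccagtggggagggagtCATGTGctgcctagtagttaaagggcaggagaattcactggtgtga
Tyr: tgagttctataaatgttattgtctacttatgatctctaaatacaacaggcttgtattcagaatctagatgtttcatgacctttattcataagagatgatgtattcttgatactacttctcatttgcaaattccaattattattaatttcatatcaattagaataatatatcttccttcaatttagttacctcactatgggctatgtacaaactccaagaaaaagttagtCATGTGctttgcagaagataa
Trpm1, first start: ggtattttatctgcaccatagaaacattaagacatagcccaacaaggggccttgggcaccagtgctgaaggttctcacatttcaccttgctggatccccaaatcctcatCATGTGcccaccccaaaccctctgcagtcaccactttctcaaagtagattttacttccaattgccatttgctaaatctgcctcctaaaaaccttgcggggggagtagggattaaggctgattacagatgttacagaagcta
Trpm1, second start: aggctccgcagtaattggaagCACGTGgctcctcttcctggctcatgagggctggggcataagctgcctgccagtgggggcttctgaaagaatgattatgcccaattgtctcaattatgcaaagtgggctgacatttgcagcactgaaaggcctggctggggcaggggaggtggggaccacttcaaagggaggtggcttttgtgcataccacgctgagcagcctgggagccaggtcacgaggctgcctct
In Dct, Tyrp1 and Tyr the motif stood in the same 10 bases, GTCATGTGCT, starting with its CATGTG at -150, -46 and -21 from the start. Dct held a second copy on the other strand at -232. The first Trpm1 start had ATCATGTGCC, with CATGTG at -141, and the second start had CACGTG at -229. One or the other motif was present in 5 of the 11 windows and 4 of the 7 genes. Among all 32851 windows of this length 12.3% held CATGTG, 6.02% held CACGTG and 17.6% held either. The windows of Kit, Ednrb and Mitf held neither. The third Mitf start held TGACGTCA, the cyclic AMP response element, at -153, as did 1.55% of all windows. A match describes these letters and is not evidence of binding.

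Dct, dopachrome tautomerase, is a melanin enzyme and an early marker of melanoblasts. Its log2 values on arrays 1 to 4 were 7.44, 6.56, 6.82 and 6.36 in control and 6.51, 6.17, 6.43 and 6.43 in mutant distal mandible. In distal maxilla they were 7.74, 6.89, 6.71 and 7.12 in control and 7.17, 8.42, 8.52 and 7.65 in mutant. The mutant distal mandible was thus below the low-signal level on all 4 arrays, and the mutant distal maxilla held 2 of the 3 values above 8.40. Proximal mandible gave 6.20, 7.59, 7.63 and 8.57 in control and 7.41, 7.06, 7.32 and 6.35 in mutant. Proximal maxilla gave 8.14, 7.24, 7.07 and 6.65 in control and 7.75, 6.82, 7.52 and 6.27 in mutant. The groups of the proximal ends overlapped throughout, and the control proximal mandible had the widest spread (SD 0.97, n = 4).

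Pmel, the protein of the fibrils inside melanosomes, was measured by 1 probe set. Its values were 8.004, 7.57, 7.31 and 7.01 in control and 7.92, 7.66, 7.49 and 7.60 in mutant distal mandible. Distal maxilla gave 8.29, 9.31, 7.36 and 8.17 in control and 8.22, 9.08, 9.14 and 9.18 in mutant. All mutant distal maxilla arrays were above all mutant distal mandible arrays, while the control groups overlapped. Proximal mandible gave 7.36, 8.39, 8.64 and 9.43 in control and 8.05, 8.01, 8.20 and 7.71 in mutant. Proximal maxilla gave 8.57, 7.93, 9.35 and 7.66 in control and 8.32, 9.45, 9.07 and 7.72 in mutant. Group means ran from 7.47 in control distal mandible to 8.90 in mutant distal maxilla.

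Tyr, tyrosinase, starts melanin synthesis, Tyrp1 encodes a related enzyme of the same pathway, and Mlana encodes a melanosome membrane protein. The brightest Tyr probe set ran from 5.00 to 6.36, that of Tyrp1 from 5.18 to 6.35, and the single one of Mlana from 4.75 to 6.16. In the mutant distal maxilla Tyr read 6.36, 5.58, 5.65 and 5.60, Tyrp1 read 6.35, 5.18, 5.70 and 5.71, and Mlana read 6.16, 5.16, 5.39 and 4.75. Array 1 of that group held the highest value of all 32 arrays for each of the 3 genes, and it was still below the low-signal level. A second Tyrp1 probe set read 6.37 there and 4.53 to 5.00 on the other 31 arrays. Tyr in the mutant distal mandible read 5.00, 5.24, 5.27 and 5.20, with no overlap with the mutant distal maxilla.

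**Figure D1:**
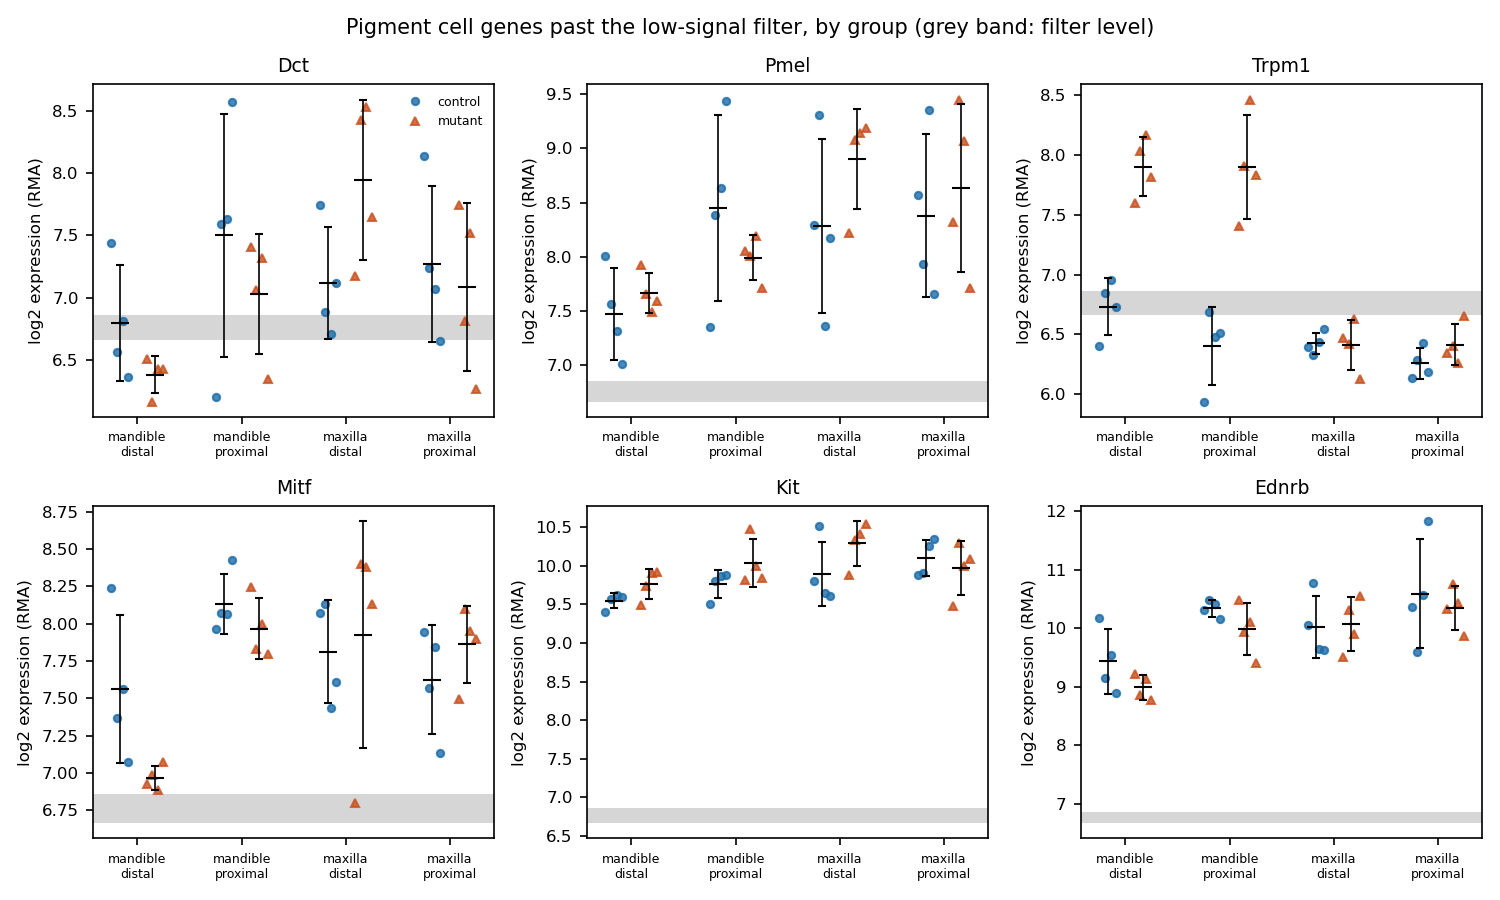
Log2 expression (RMA) of the 6 pigment cell genes past the low-signal filter, with 1 point per array in each of the 8 groups and bars for the mean ± SD (n = 4). The grey band is the low-signal level of 6.66 to 6.86; Trpm1 is above it in both mutant mandible groups, and Dct is below it in the mutant distal mandible.

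**Figure D2:**
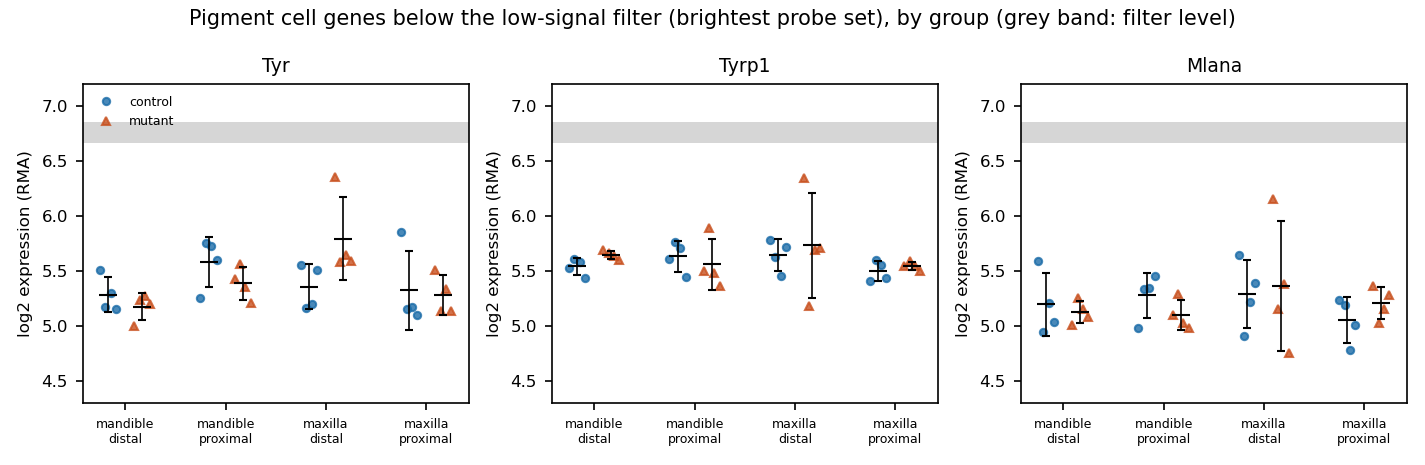
Log2 expression (RMA) of the brightest probe set of Tyr, Tyrp1 and Mlana, with 1 point per array in each of the 8 groups and bars for the mean ± SD (n = 4). Every array lies below the grey band, which is the low-signal level of 6.66 to 6.86, and the highest point of each gene is array 1 of the mutant distal maxilla.

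Trpm1, a cation channel of melanocytes and retinal bipolar cells, was read by 4 probe sets. Its representative probe set, 1437445_at, read 6.41, 6.84, 6.95 and 6.73 in control and 7.60, 8.03, 8.16 and 7.81 in mutant distal mandible. In proximal mandible it read 5.94, 6.68, 6.48 and 6.51 in control and 7.40, 7.91, 8.46 and 7.83 in mutant. The mutant arrays were above all control arrays at both ends of the mandible. In distal maxilla it read 6.39, 6.33, 6.44 and 6.54 in control and 6.47, 6.42, 6.62 and 6.13 in mutant. In proximal maxilla it read 6.14, 6.28, 6.43 and 6.18 in control and 6.34, 6.40, 6.26 and 6.66 in mutant. All 16 maxilla arrays lay below the low-signal level, so a change there could be compressed.

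The other Trpm1 probe sets did not share this size of difference. Probe set 1418935_at read 6.08, 6.06, 6.14 and 6.26 in control and 6.67, 6.60, 6.39 and 6.70 in mutant distal mandible. In proximal mandible it read 5.71, 6.51, 6.04 and 6.27 in control and 6.28, 6.64, 7.07 and 6.50 in mutant. These values were higher on all mutant arrays at the distal end and overlapped at the proximal end. Probe set 1440241_at stayed between 6.49 and 7.06 and 1437531_at between 4.39 and 4.80 on all arrays. With every probe set of the array tested and no filter, 1418935_at differed by 0.45 and 0.49 in the distal and proximal mandible (limma adjusted p = 0.53 and 0.74), and 1440241_at by 0.01 and 0.03. Probe set 1437445_at was called in the same test at both ends (adjusted p = 0.00074 and 4.4e-05). It was taken to represent the gene because it had the highest mean over all arrays, 6.81 against 6.76 for 1440241_at, and the mutant mandible arrays raised that mean. Which transcript each probe set reads is not given in the sources used here.

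**Figure D3:**
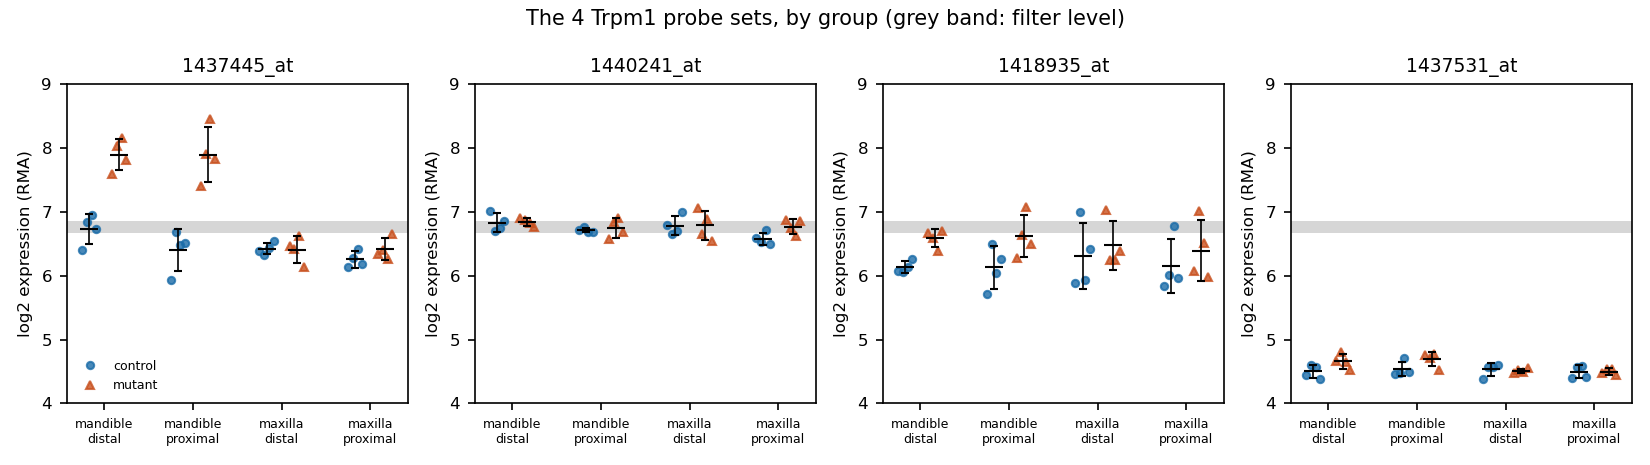
Log2 expression (RMA) of each of the 4 Trpm1 probe sets, with 1 point per array in each of the 8 groups, bars for the mean ± SD (n = 4) and the low-signal level as a grey band. Probe set 1437445_at separates mutant from control mandible at both ends, 1418935_at does so at the distal end with a smaller gap, and 1440241_at and 1437531_at stay within 6.49 to 7.06 and 4.39 to 4.80.

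Mitf, the transcription factor that specifies melanocytes and also acts in mast cells and the retinal pigment epithelium, was read by 1 probe set past the filter. Its values were 8.24, 7.37, 7.56 and 7.08 in control and 6.92, 6.98, 6.89 and 7.07 in mutant distal mandible. The groups did not overlap, though the lowest control and the highest mutant array were nearly equal. Proximal mandible gave 7.96, 8.07, 8.06 and 8.43 in control and 8.24, 7.83, 7.996 and 7.80 in mutant. Distal maxilla gave 8.07, 8.13, 7.44 and 7.61 in control and 6.80, 8.40, 8.38 and 8.13 in mutant. Proximal maxilla gave 7.95, 7.57, 7.85 and 7.13 in control and 7.50, 8.10, 7.95 and 7.90 in mutant. The value of 6.80 on array 1 of the mutant distal maxilla was the lowest of all 32 and widened that group to an SD of 0.76. The second Mitf probe set, 1422025_at, lay below the low-signal level on all arrays, at 5.33 to 6.30.

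Kit, the receptor for stem cell factor that melanoblasts and mast cells need, had its group means within a narrow range. Distal mandible read 9.40, 9.56, 9.62 and 9.60 in control and 9.49, 9.74, 9.91 and 9.91 in mutant. Distal maxilla read 9.80, 10.51, 9.65 and 9.61 in control and 9.88, 10.33, 10.42 and 10.54 in mutant. All 32 values lay between 9.40 and 10.54, and the group means of the 4 proximal groups between 9.77 and 10.10. A second probe set, 1415900_a_at, ran from 6.62 to 7.80.

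Ednrb, the endothelin receptor of melanoblasts and glial precursors, had 3 probe sets past the filter. Its representative, 1437347_at, read 10.17, 9.14, 9.54 and 8.90 in control and 9.22, 8.85, 9.13 and 8.77 in mutant distal mandible. In proximal mandible it read 10.32, 10.48, 10.42 and 10.15 in control and 10.49, 9.94, 10.11 and 9.40 in mutant. The mutant distal mandible had the lowest group mean (8.99 ± 0.22, SD, n = 4), and none of its arrays reached the mutant proximal mandible. Distal maxilla read 10.06, 10.77, 9.65 and 9.63 in control and 9.52, 10.31, 9.91 and 10.55 in mutant. Proximal maxilla read 10.37, 9.60, 10.57 and 11.83 in control and 10.33, 10.76, 10.43 and 9.86 in mutant. The 2 other probe sets, 1423594_a_at and 1426314_at, had means of 7.51 and 7.14 in the mutant distal mandible and of 8.32 and 7.93 in the mutant distal maxilla.

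The first comparison asked what loss of Alk5 in the neural crest lineage did to these genes in each region. Trpm1 rose in the mutant mandible, by 1.17 ± 0.17 (SE) at the distal end and 1.50 ± 0.17 at the proximal end (limma adjusted p = 0.000389 and 4.4e-05). In control mandible 3 of 4 distal and 1 of 4 proximal arrays were above the low-signal level. Each control array was then set at the higher of its own value and that level. The mutant mean of Trpm1 was at least 2.14-fold higher in distal and at least 2.31-fold higher in proximal mandible. These bounds on group means carry no sampling error. The 95% intervals of the measured log2 differences were 0.81 to 1.53 and 1.14 to 1.85. At the proximal end Trpm1 had the smallest p of the 13705 genes tested. It was the 1 gene of the 6 called at each end, where "called" means an adjusted p below 0.05, and 1.91% and 1.26% of all genes were called at the distal and proximal mandible (0.482% and 0.591% as higher). In the maxilla 0 of the 6 were called by limma at either end, beside 0.788% and 0.0657% of all genes. At an unadjusted p below 0.05 the counts of members were 1 and 0, beside 1773 and 672 of the 13705 genes. The 1 was Kit in distal maxilla. With array weights 4 were called in distal maxilla, for which the share of all genes is not given here. Trpm1 differed by -0.02 (95% interval -0.37 to 0.34) in distal and by 0.16 in proximal maxilla.

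The genotype effect on Trpm1 differed between the jaws. Averaged over both ends, the effect in mandible exceeded that in maxilla by 1.26 ± 0.17 (limma adjusted p = 0.00112). Trpm1 was the only gene of 13705 called in that interaction, a background of 0.0073%. The call was lost when all arrays numbered 2, 3 or 4 were left out (adjusted p = 0.201, 0.0528 and 0.176), with differences of 1.32, 1.15 and 1.29. Over the averaged profiles of the 4 regions Trpm1 was higher in mutants by 0.70 ± 0.11 (adjusted p = 0.0265; 1.37% of all genes called), and this call was lost in 10 of 22 alternatives. In the interaction of genotype with end 0 of the 6 were called by limma (0.0146% of all genes). At an unadjusted p below 0.05 there were 0 of the 6, beside 719 of the 13705 genes. The genes beside Trpm1 on its chromosome, Klf13, Otud7a and Chrna7 on one side and Mtmr10, Mphosph10 and Mcee on the other, were called in 0 of the genotype comparisons, and none of the 6 differed by more than 0.2 in the mandible.

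The other 5 tested genes were not called for genotype in any region. Dct differed by -0.41, -0.47, 0.83 and -0.19 in distal mandible, proximal mandible, distal maxilla and proximal maxilla (SE 0.41). Its distal maxilla value had an unadjusted p of 0.0511, an adjusted p of 0.39 and a 95% interval of -0.01 to 1.66, which leaves both no change and more than a doubling possible. Pmel differed by 0.19, -0.46, 0.62 and 0.26 (SE 0.41), also without a call. Mitf differed by -0.59 ± 0.27 in distal mandible (unadjusted p = 0.0336, limma adjusted p = 0.261) and by -0.16, 0.11 and 0.24 in the other regions. Kit differed by 0.22, 0.27, 0.40 and -0.13 (SE 0.19). Ednrb differed by -0.45, -0.36, 0.05 and -0.25 (SE 0.34). Its average over the 4 regions, -0.25, had an unadjusted p of 0.0142 and an adjusted p of 0.199.

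The values in distal maxilla shifted without array 1 of the mutant group and with array weights. Leaving out all arrays numbered 1 changed no call of Dct, Pmel, Mitf or Kit for genotype there. Without that 1 array the differences there were 1.08 for Dct, 0.85 for Pmel, 0.49 for Mitf and 0.53 for Kit, and 0 of them were called (adjusted p = 0.284, 0.461, 0.355 and 0.244). With limma's array weights, which ran from 0.0709 to 0.466 on the arrays numbered 1 and from 0.159 to 8.38 on the others, all 4 were called higher in mutant distal maxilla. The weighted differences were 1.53 for Dct, 1.36 for Pmel, 0.80 for Mitf and 0.65 for Kit (adjusted p = 8.86e-05, 0.00135, 0.000155 and 0.000345). Dct, Pmel and Mitf were also called in the weighted interaction of genotype with jaw, at -1.24, -1.12 and -0.82. In distal mandible the weighted Mitf difference was -0.39 (adjusted p = 0.0239) and that of Kit was 0.30 (adjusted p = 0.0443). The share of all genes called with array weights is not given here, so the weighted calls are not read as particular to these genes.

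**Figure D4:**
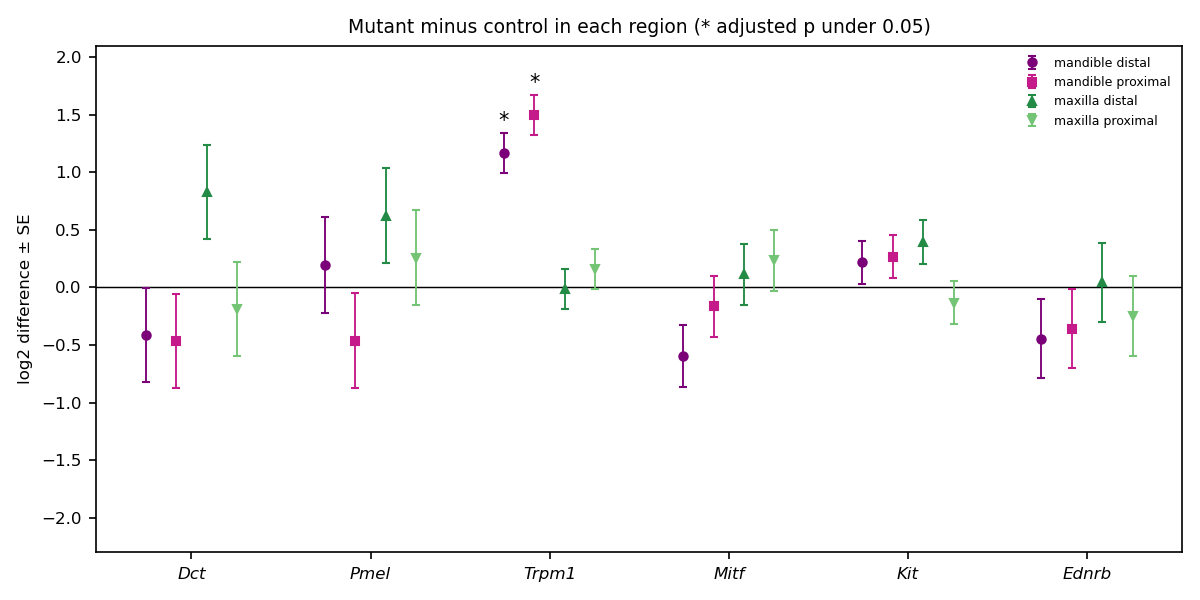
Mutant minus control log2 difference ± SE of the 6 tested genes in the 4 regions, from the limma fit of 8 groups with 4 arrays each. Asterisks mark an adjusted p below 0.05, which Trpm1 alone reached, at 1.17 in distal and 1.50 in proximal mandible.

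The second comparison set mandible against maxilla within each genotype. In mutant distal tissue Dct was lower in the mandible by 1.56 ± 0.41 (limma adjusted p = 0.00974), Pmel by 1.24 ± 0.41 (2.36-fold, adjusted p = 0.0449), Ednrb by 1.08 ± 0.34 (2.11-fold, adjusted p = 0.0347) and Mitf by 0.96 ± 0.27 (1.95-fold, adjusted p = 0.0150). Trpm1 was higher by 1.49 ± 0.17 (adjusted p = 1.1e-06). The dimmer group was below the low-signal level on all 4 arrays for Dct and for Trpm1, and set at that level it gave differences of at least 2.33-fold and at least 2.24-fold. Kit differed by -0.53 ± 0.19 (adjusted p = 0.0626). Thus 5 of the 6 tested genes were called, 4 as lower and 1 as higher, in a comparison in which 13.7% of all genes were called, 9.29% as lower and 4.39% as higher. The 4 arrays of each group did not overlap for Dct, Pmel, Ednrb and Trpm1, and for Mitf they overlapped through array 1 of the mutant maxilla. The share of all genes without overlap is not given here or for the other comparisons, so overlap only describes the values. The same arrays of the mutant distal mandible enter this comparison and the genotype comparison, so the results are not independent.

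The jaw differences in mutant distal tissue kept their sign without array 1 of the mutant maxilla. They were then -1.82 for Dct, -1.47 for Pmel, -1.34 for Mitf, -1.27 for Ednrb and -0.67 for Kit, and all 5 were called (adjusted p = 0.00459, 0.0255, 0.00012, 0.0208 and 0.0224). Leaving out other arrays ended calls. The Dct call was lost without the arrays numbered 2 (-1.33, adjusted p = 0.147) or 3 (-1.38, adjusted p = 0.12). Mitf was called in 17 of 23 alternatives, Ednrb in 16 of 24 and Pmel in 11 of 24, and single arrays ended calls of each. For Mitf these were arrays 2 and 3 of the mutant maxilla, for Ednrb arrays 2, 3 and 4 of the mutant mandible and 2 and 4 of the mutant maxilla, and for Pmel all but array 1 of the mutant maxilla. Trpm1 was called in all 23, each with probe set 1437445_at. Of the other Ednrb probe sets, 1423594_a_at differed by -0.81 and 1426314_at by -0.79 in the test of every probe set (adjusted p = 0.169 and 0.231). In that test 2 Tyr probe sets were called lower in the mutant distal mandible, 1417717_a_at by 0.62 and 1456095_at by 0.36 (adjusted p = 0.0192 and 0.0264). Both lay below the low-signal level on every array, and 7.91% of all probe sets were called.

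In control distal tissue 0 of the 6 were called between the jaws by limma, beside 1.47% of all genes. At an unadjusted p below 0.05 there were 0 of the 6, beside 1385 of the 13705 genes. The differences were -0.32 for Dct, -0.81 for Pmel, -0.25 for Mitf, -0.35 for Kit, -0.59 for Ednrb and 0.31 for Trpm1. The jaw difference of the mutant therefore passed the threshold where that of the control did not, which does not show that they differ. Whether they differ in distal tissue alone was not tested. The difference between the jaw differences of mutant and control was tested only with the proximal end averaged in. Averaged over both ends, the test of that difference, which is the interaction of genotype with jaw, gave -0.76 for Dct (unadjusted p = 0.0717), -0.57 for Pmel (0.177), -0.56 for Mitf (0.0463), 0.11 for Kit (0.566) and -0.30 for Ednrb (0.389), all with an adjusted p of at least 0.941. At the proximal end Trpm1 was higher in mutant mandible by 1.49 (adjusted p = 3.23e-06; 3.06% of all genes called) and was the 1 member called. In control proximal tissue 0 of the 6 were called (5.4% of all genes), and Mitf differed by 0.51 with no overlap of arrays (unadjusted p = 0.0671).

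**Figure D5:**
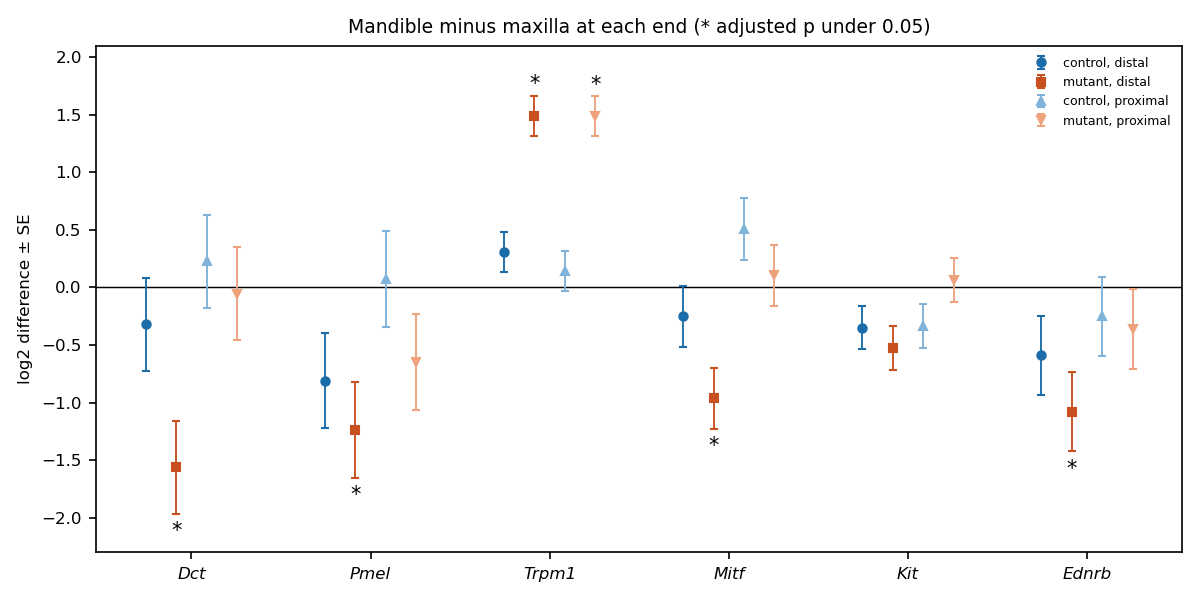
Mandible minus maxilla log2 difference ± SE of the 6 tested genes at the distal and proximal ends in control and mutant tissue, from the limma fit of 8 groups with 4 arrays each. Asterisks mark an adjusted p below 0.05; in mutant distal tissue Dct, Pmel, Mitf and Ednrb are below 0 and Trpm1 is above it.

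The third comparison set the distal against the proximal end of each jaw. In mutant mandible Mitf was lower at the distal end by 1.00 ± 0.27, a 2-fold difference with no overlap of arrays (limma adjusted p = 0.023; 5.03% of all genes called, 3.58% as lower). That call was lost in 8 of 23 alternatives, among them the leaving out of array 1, 2 or 3 of the distal or array 1 or 3 of the proximal mutant mandible. Ednrb differed by -0.99 with no overlap and an adjusted p of 0.104, and Trpm1 did not differ between the ends of the mutant mandible beyond its error (0.00 ± 0.17). In control mandible 0 of the 6 were called (4.84% of all genes). At an unadjusted p below 0.05 there were 3 of the 6, beside 2219 of the 13705 genes. The 3 were Pmel at -0.98, Ednrb at -0.91 and Mitf at -0.57. Without the arrays numbered 1, Dct and Mitf were called in control mandible, at -1.35 and -0.85 (adjusted p = 0.0164 and 0.00735). In maxilla 0 of the 6 were called in either genotype, and neither comparison called any gene. The 1 member with an unadjusted p below 0.05 was Dct in mutant maxilla, at 0.86 (limma adjusted p = 0.999), beside 555 of the 13705 genes.

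The other melanocyte genes were described from 3 lists with 51 genes, of which 44 were tested. Among the 14 transcription factors tested of 15, 0 were called for genotype in any region. Between the jaws of the mutant distal tissue 5 were lower in the mandible and 1, Snai2, was higher, where 9.29% of all genes were called lower and 4.39% higher. Sox10, which activates Mitf in the neural crest and also marks glia, was lower by 1.24 (limma adjusted p = 0.000418). Sox5, a partner of Sox10, was lower by 1.08, Sox9 by 1.13 and Tfec, a relative of Mitf, by 1.04 (adjusted p = 0.00343, 0.0115 and 0.0322). Foxd3, an early crest factor, was the fifth, at -0.75. The list's median difference was -0.19, and that of all genes was -0.01. Between the ends of the mutant mandible Pax3, another activator of Mitf, was higher at the distal end by 3.71, with Tbx2 and Zeb2 also higher. Sox10 and Sox9 were lower there by 0.82 and 1.01, in a comparison that called 5.03% of all genes. Between the ends of the control mandible 1 of the 14 was called higher and 0 lower, where 4.84% of all genes were called.

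Of the 12 signals and receptors tested of 15, 1 was called for genotype, in the average over regions, where 1.37% of all genes were called. Edn3, the ligand of Ednrb, was higher in mutants by 0.49 averaged over the regions (limma adjusted p = 0.0365), a call lost in 12 of 23 alternatives. Its regional differences were 0.61, 0.64, 0.20 and 0.52 in distal mandible, proximal mandible, distal maxilla and proximal maxilla, with adjusted p of 0.0588, 0.0592, 0.689 and 0.421. Kitl, the ligand of Kit, differed by -0.53, -0.50, 0.06 and -0.04, also without a call (adjusted p of 0.292, 0.442, 0.955 and 1.00). Between the jaws of the mutant distal tissue Nrg1 and its receptor gene Erbb3, which act in glial precursors, were lower in the mandible by 1.23 and 0.49. They were the 2 of the 12 called there, a share near the 13.7% of all genes called (9.29% as lower). Mc1r, the melanocortin receptor of melanocytes, lay below the low-signal level on all 32 arrays.

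Of the 18 genes tested of the 21 listed as melanosome proteins, 1 was called for genotype in distal mandible (1.91% of all genes) and 0 in the other regions. The 1 gene, Cited1, is not a melanosome protein but a transcriptional coregulator of pigment cells that other embryonic tissues also express. It is kept in the counts of this list. Cited1 rose in distal mandible by 1.69 (limma adjusted p = 0.0491), a call lost in 14 of 24 alternatives. Between the jaws of the mutant distal tissue Cited1 was higher in the mandible by 1.76 and Mcoln3, an endosomal channel, was lower by 1.33, so that 2 of the 18 were called, a share near the 13.7% of all genes. Slc45a2 and Oca2, melanosomal transporters, were above the low-signal level on 24 arrays each, and Gpr143 and Mlph on 0.

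Markers of some other cell types also differed between the jaws of the mutant distal tissue, in which 13.7% of all genes were called. Of 10 surface and oral epithelium markers 3 were called lower in the mandible, against 2 in control distal tissue. Of 9 jaw mesenchyme markers 4 were called higher, against 1 in control distal tissue. Of 8 endothelial, 6 osteoclast and 5 erythroid markers tested, 0 were called between the jaws of the mutant distal tissue. Fabp7 and Mbp, markers of glial precursors and of myelinating glia, differed by -3.19 and -1.15 and were both called lower in the mandible (limma adjusted p = 0.00241 and 3.24e-06), and Pmp22 was higher by 0.67, so that 3 of the 7 tested glial markers were called. The mean log2 level of the glial list was 7.51 to 7.78 in mutant distal mandible and 8.16 to 8.49 in mutant distal maxilla, against 7.71 to 8.62 and 7.99 to 8.68 in control. Of 7 neuronal markers 6 were lower in the mutant distal mandible, where the mean level of the list was 7.59 to 7.89 against 9.89 to 11.1 in the maxilla. In control distal tissue 2 of the 7 were lower in the mandible, and the levels were 8.30 to 8.67 against 9.14 to 10.06. In distal mandible Stmn2, a neuronal gene, was also called lower in mutant than in control, at -2.49. Of 5 mast cell genes 3, Cpa3, Hdc and Gata2, were lower in the mutant distal mandible than maxilla, Cpa3 by 2.25, and Hdc was higher by 0.83 in mutant than control distal maxilla (adjusted p = 0.0348), a call lost in 12 of 23 alternatives. In control tissue 1 of the 5 mast cell genes was called lower in the mandible at each end. Over the 32 arrays Kit correlated with Cpa3 at -0.17, and at -0.64 after group means were subtracted. With Krt14, of the epithelium list, it correlated at -0.70 and -0.75. The part of these cell types in the values of Ednrb, Mitf and Kit was not tested.

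Some genes of the eye lists also differed between the jaws in both genotypes. At the distal ends 2 of 5 pigment epithelium and 2 of 4 neural retina genes tested were called lower in the mandible in each genotype. Of 4 lens genes 0 were called in control and 1, as lower, in mutant distal tissue. The shares of all genes called were 1.47% and 13.7%. Otx2, a factor of the retinal pigment epithelium and forebrain, was lower in the mandible by 4.85 in control distal, 4.60 in control proximal, 5.64 in mutant distal and 3.94 in mutant proximal tissue. Lhx2, a factor of the early eye and of other tissues, was lower by 4.39 in control and 6.32 in mutant distal tissue. Of the 10 listed pigment epithelium genes Rpe65, Rgr, Lrat and Slc6a20a lay below the low-signal level on all 32 arrays. Of the other 6 listed genes Best1, Ttr and Stra6 were above it on all 32, Rdh5 on 21, Otx2 on 14 and Rlbp1 on 2. The mean log2 level of the pigment epithelium list was 5.69 to 6.10 on mandible and 6.06 to 6.81 on maxilla arrays. Array 1 of the mutant distal maxilla, which held the highest Tyr, Tyrp1 and Mlana values, read 7.74 for Slc45a2, 7.32 for Oca2 and 7.23 for Cryaa, a lens crystallin, where the other arrays of the group read at most 6.88, 6.77 and 5.94. Its mean log2 level over the mast cell list was 7.65 against 6.30 to 6.90 on the others. The lens list also had its highest mean of the group there, 6.51, where arrays 2 to 4 gave 6.12 to 6.28. The pigment epithelium list had its lowest there, 6.64, where arrays 2 to 4 gave 6.66 to 6.73. Array 1 lay within the range of arrays 2 to 4 for the neural retina list (7.13, range 6.81 to 7.63). The same held for the melanosome list (8.32, range 8.27 to 8.57). Whether that tissue held eye or mast cells was not tested.

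Over the 32 arrays Dct, Pmel and Mitf varied together, while Trpm1 correlated negatively with each of them. The correlation was 0.69 between Dct and Pmel, 0.65 between Dct and Mitf, 0.64 between Mitf and Pmel and 0.60 between Kit and Pmel. After group means were subtracted these were 0.57, 0.57, 0.66 and 0.46, so the arrays varied together within groups as well. Trpm1 correlated with Dct at -0.37 and with Ednrb at -0.54, and at 0.07 and -0.30 after subtraction. Ednrb correlated with Fabp7 at 0.88 and with Sox10 at 0.85. These arrays share tissue groups, numbers and normalization, and the values are a description.

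The genes with profiles most like each member were taken by Pearson correlation over the 32 arrays. They were 1700096K18Rik (0.70), Pmel (0.69) and Psap (0.67) for Dct, and Ckb (0.82), Zic1 (0.82) and Plat (0.81) for Pmel. For Mitf they were A430033K04Rik (0.85), Creg1 (0.84) and Ccpg1 (0.84). For Kit they were Insr (0.87), Marchf6 (0.85) and Nol4l (0.84), and for Ednrb Sema3g (0.92), Cyp2j6 (0.91) and Afap1 (0.89). For Trpm1 they were Nup160 (0.84), Syt17 (0.83) and Dctd (0.82), and after group means were subtracted these fell to 0.37, 0.13 and 0.50. Within groups the most alike were Il16, Meis1 and Rbpms for Dct, Synpo2, Slc22a23 and Zic1 for Pmel, and Rnf141, Scn2b and Zfp937 for Mitf. They were Marchf6, Insr and Elk3 for Kit, Sema3g, Ids and Prune2 for Ednrb, and Coa5, Cdca8 and Trim28 for Trpm1.

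In the order of its group means the 2 mutant mandible groups of Trpm1 stood first at 7.90 each, and the other 6 groups followed between 6.26 and 6.73. For Dct, Mitf and Ednrb the mutant distal mandible stood last, at 6.38, 6.97 and 8.99, and for Pmel and Kit the control distal mandible did, at 7.47 and 9.55. The mutant distal maxilla stood first for Dct, Pmel and Kit, at 7.94, 8.90 and 10.29. Neighbours in these orders differed by less than the larger of their SDs, with 5 exceptions. These were the gap below the mutant mandible groups of Trpm1, the next gap of Trpm1, the last gap of Mitf and of Kit, and that between mutant proximal and mutant distal mandible for Pmel. The other steps of the orders are within the spread between arrays.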

How the data were processed

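Each array was deposited as log2 values summarised by probe set with RMA, per the submitters' processing notes, which state no version. RMA draws the arrays towards 1 distribution and compresses differences of dim probe sets. Array medians lay between 7.35 and 7.49. Of 45101 probe sets 34945 carried 1 symbol in the platform annotation. The low-signal filter asked for a value over percentile 40 of the array on 4 or more arrays and passed 29356 probe sets. Each of 13705 genes was represented by its probe set of highest mean signal.

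A limma 3.58.1 model in R 4.3.3 of the 8 group means (24 residual degrees of freedom) gave all comparisons but the average genotype effect. That effect was fitted on 4 against 4 profiles averaged over regions (6 residual degrees of freedom). P-values were adjusted by Benjamini-Hochberg over all genes of a comparison, with a threshold of 0.05. Differences are mutant minus control, mandible minus maxilla and distal minus proximal. The members and lists were chosen with earlier results of these data known. Named genes were the members, at most 4 called genes of each list in the comparison described, by smallest adjusted p, or else its brightest 2, the 3 genes most correlated with each member, and Tgfbr1. Genes named outside that rule, among them the neighbours of Trpm1, were chosen after their values were seen. The code was tested on simulated data. No pair of arrays was identical. Equal numbers correlated over 0.1 in every pair for the average genotype effect (0.44, 0.20, 0.40 and 0.23 for numbers 1 to 4), the jaw difference in mutant proximal tissue (lowest 0.20) and the end difference in mutant mandible (lowest 0.19), from the data and not a label. Other normalization, filters, tests of every probe set, covariates, the replicate block, array weights and left-out arrays were tried. Promoters are from RefSeq (GRCm38.p6).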

Additional observations from a re-analysis of the deposited data

Results flagged for a closer look

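The genotype effect on Trpm1 differed between the jaws, by 1.26 on the log2 scale (limma adjusted p = 0.00112). That call was lost without the arrays numbered 2, 3 or 4 (adjusted p = 0.201, 0.0528 and 0.176), and all 16 maxilla arrays lay below the low-signal level for Trpm1. Single arrays stood far from the other 3 of their group, by Dixon's criterion, in 4 of 72 groups examined, where chance gives about 1 in 20. Of these, 3 were array 1 of the mutant distal maxilla. Tyr read 6.36 there against 5.58 to 5.65 on the others, Pmel read 8.22 against 9.08 to 9.18, and Mitf read 6.80 against 8.13 to 8.40. The fourth was Tyr on array 1 of the control proximal maxilla, at 5.86 against 5.11 to 5.18.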

How the results depend on the processing

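Over the alternatives, calls of the 6 tested genes were kept 227 times and lost 50 times, differences without a call gained one 37 times, and 0 called differences reversed. Trpm1 kept its calls in all 23 alternatives that gave a value for genotype in distal mandible (1.06 to 1.27) and proximal mandible (1.31 to 1.66). All of them read Trpm1 by probe set 1437445_at, so they did not vary the probe set that stands for the gene. Array weights moved the number of members called most. It went from 1 to 3 for genotype in distal mandible, from 0 to 4 in distal maxilla and from 1 to 4 in the interaction with jaw, from 0 to 2 in that with end and from 1 to 2 on average. It went to 1 and 2 for the jaw difference in control and mutant proximal tissue, and for the ends to 6 in control mandible, 3 in mutant mandible and 3 in mutant maxilla. The shares of all genes called with array weights are not given here, so these counts do not single out the members. The stricter filter dropped Trpm1, Dct and Mitf, so they were not tested under it. It left 0 called where only Trpm1 had been, and 0 for the ends of the mutant mandible, where only Mitf had been. For the jaws of the mutant distal tissue it left 2 of 5, Pmel and Ednrb. With only the groups compared in the fit, 2 were called between the ends of the mutant mandible. With every probe set and no filter, an alternative chosen after seeing the data, 0 were called on average. Leaving out arrays gave 0 to 1 members called for the jaws of control proximal tissue, 1 to 6 for those of mutant distal tissue, 0 to 2 for the ends of control mandible, 0 to 1 for those of mutant mandible, 0 to 1 for the interaction with jaw and 0 to 2 on average. Under the replicate block Kit became called between the jaws of mutant distal tissue (-0.53, adjusted p = 0.0169) and no other member call changed, while the genes called for genotype rose from 262 to 729 in distal mandible, from 172 to 478 in proximal mandible, from 108 to 315 in distal maxilla and from 9 to 34 in proximal maxilla. The cause of these shifts was not tested. Edn3, Cited1 and Hdc lost their genotype calls in 12 of 23, 14 of 24 and 12 of 23 alternatives. Values near the low-signal level of 6.66 to 6.86 limit what can be read for Trpm1 in maxilla and Dct in mutant distal mandible.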
